A study of Aspergillus nidulans with 12 samples.

Results

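Genes that protect fungal cells against reactive oxygen were examined for binding of VeA and LaeA, regulators of development and metabolism in the mould Aspergillus nidulans. They comprised the catalase genes catA (AN8637), catB (AN9339) and catC (AN5918), the catalase-peroxidase gene cpeA (AN7388), the superoxide dismutase genes sodA (AN0241) and sodB (AN5577), and napA (AN7513), which encodes a bZIP transcription factor. They were chosen by gene identifier for their function and by no rule on their signal, though earlier results of these data were known. They are 7 of the 9656 genes that the peak lists name as nearest to a peak. A peak was assigned to a gene when the lists name that gene as its nearest one. All 7 genes were named by at least 1 peak.

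Chromatin immunoprecipitation and sequencing was performed on vegetative cells grown for 24 h in dark liquid glucose minimal medium. No oxidant treatment is named in the sources used here. The first strain carries veA::FLAG, the second carries laeA::FLAG in a veA background, and the third is an untagged wild type (WT). In each tagged strain the FLAG epitope, a short peptide, was joined to the end of the gene at its own locus. Each tagged strain goes back to 1 selected transformant that was then crossed, so strain and tag cannot be told apart. Crosslinked chromatin of each strain was precipitated with mouse monoclonal anti-FLAG antibody in 3 libraries and with anti-rabbit IgG in 1 library. The labels do not say whether the 3 libraries come from separate cultures, so p-values measure only the spread between these libraries.

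Reactive oxygen species are by-products of respiration and also signals in fungal development. Superoxide dismutases turn superoxide into hydrogen peroxide, and catalases and catalase-peroxidases remove the peroxide. The bZIP factor encoded by napA is related to yeast Yap1, a peroxide-responsive activator of antioxidant genes. VeA is a velvet domain protein, LaeA resembles methyltransferases and controls secondary metabolism, and both can be part of the nuclear velvet complex.

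The 3 strains were not sampled evenly. The anti-FLAG libraries held 1.46 to 1.89 M tags in VeA::FLAG, 0.971 to 3.70 M in LaeA::FLAG and 0.320 to 7.97 M in WT, and the numbers of called peaks were 4252 to 5783, 557 to 2471 and 134 to 1831 in the same order of strains. The IgG libraries held 2.10 M tags in VeA::FLAG, 10.6 M in LaeA::FLAG and 2.66 M in WT. Signal is given as tags in a peak scaled to a library of 10 M tags, so that 1 IgG tag is worth 4.77 units in the VeA::FLAG, 0.942 in the LaeA::FLAG and 3.76 in the WT strain. In the lists every peak of a strain is set beside the same IgG library, and a library without a called peak at a gene gives no anti-FLAG signal for it. Intervals and limits of detection given here cover counting error only.

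The genes were found more often in VeA::FLAG than in the other strains, and so were genes in general. Of the 23 peaks of single libraries that name them, 16 came from VeA::FLAG (69.6%), 4 from LaeA::FLAG (17.4%) and 3 from WT (13.0%). Of all 23118 single peaks, 67.9% came from VeA::FLAG, 22.7% from LaeA::FLAG and 9.37% from WT, so the split was near the background. In VeA::FLAG replicates 1, 2 and 3, peaks named 5, 4 and 1 of the 7 genes, where 37.3, 46.4 and 46.8% of all genes were named. In LaeA::FLAG the numbers were 1, 2 and 0 of the 7 genes, against 23.0, 20.6 and 5.56% of all genes. In WT they were 0, 2 and 0 of the 7 genes, against 1.32, 17.5 and 2.06% of all genes. At least 1 library of the strain named 6 of the 7 genes in VeA::FLAG (76.9% of all genes), 3 in LaeA::FLAG (37.9%) and 2 in WT (19.4%). VeA::FLAG replicate 3 has the longest peak list but names only napA, and WT replicate 2 is the only WT library that names any of the 7 genes.

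**Figure D1:**
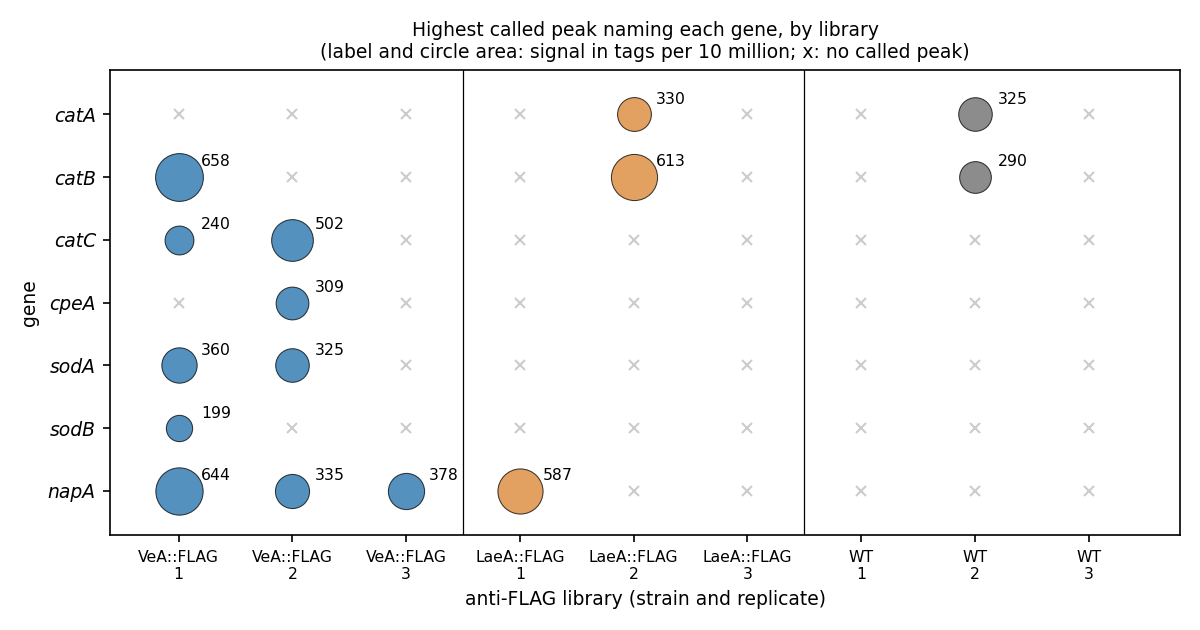
Highest anti-FLAG signal (tags per 10 M, circle area and label) among the called peaks that name each gene (rows) in each anti-FLAG library (columns; VeA::FLAG, LaeA::FLAG and WT, replicates 1 to 3). A grey cross marks a library with no called peak. Only napA has a circle in all 3 VeA::FLAG libraries, and the WT circles, 325 for catA and 290 for catB, are both from replicate 2.

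**Figure D2:**
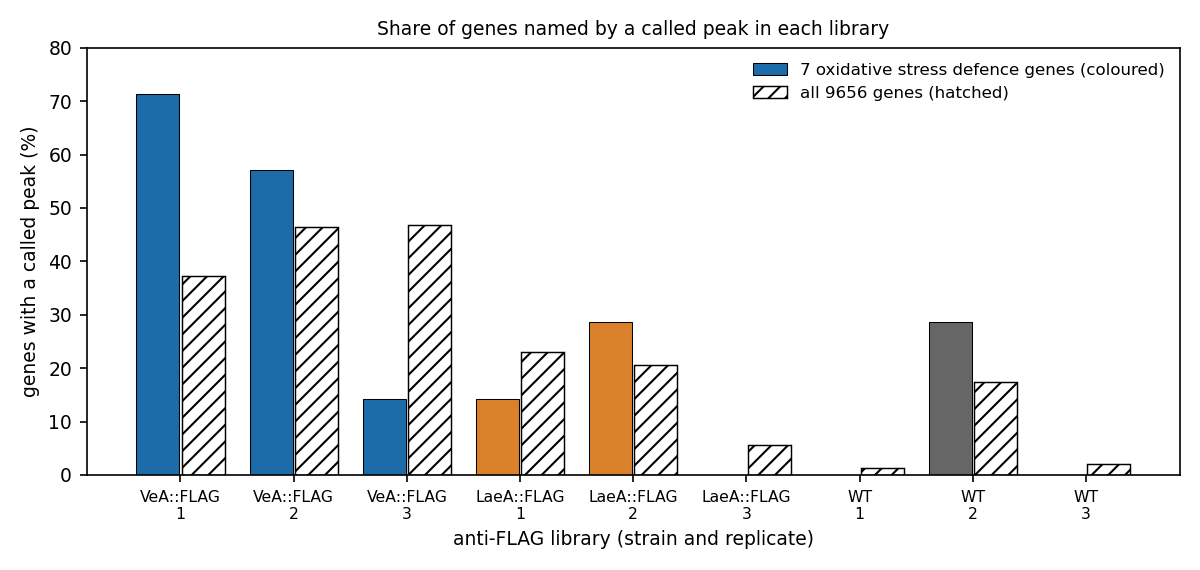
Share of genes (%) named by at least 1 called peak in each anti-FLAG library, for the 7 oxidative stress defence genes (coloured bars) and all 9656 genes (hatched bars). In VeA::FLAG replicate 1 the share was 71.4% of the 7 genes and 37.3% of all genes, whereas in VeA::FLAG replicate 3 it was 14.3 and 46.8%.

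Peaks called in at least 2 of the 3 VeA::FLAG libraries were found at catC, sodA and napA. These are 3 of 7 genes (42.9%), against 39.1% of all genes, a share near the background. Without VeA::FLAG replicate 1, or without replicate 2, only napA remained called in both other libraries. The share of all genes fell too, to 25.8% without replicate 1 and 21.1% without replicate 2. For LaeA::FLAG no gene of the 7 was called in at least 2 libraries (9.18% of all genes), and for WT none (1.28% of all genes).

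The question of whether the tagged strains gave more calls than untagged WT was tested per gene by a two-sided Fisher exact test of the number of libraries with a call, run over all 9656 genes. With 3 against 3 libraries the smallest p this test can give is 0.1. VeA::FLAG had more called libraries than WT at 5 of the 7 genes (catC, cpeA, sodA, sodB and napA), against 70.9% of all genes, and fewer at 1 gene (catA), against 5.46% of all genes. LaeA::FLAG had more called libraries than WT only at napA, against 32.2% of all genes, and fewer at none of the 7, against 11.1% of all genes. That count changed when single libraries were left out. LaeA::FLAG had the higher share of called libraries at 2 genes (catA and catB) without its replicate 1. It did so at 3 genes (catA, catB and napA) without its replicate 3 or without WT replicate 2. LaeA::FLAG replicates 1 and 3 held no call at catA or catB. Leaving them out therefore changed only the number of libraries compared there, and no call. No gene of the 7 passed the test in either comparison, nor had any an unadjusted p below 0.05, which this design cannot give. In LaeA::FLAG against WT every one of the 7 had an exact p = 1. The lowest values were those of napA in VeA::FLAG, with an exact p = 0.1 and a Benjamini-Hochberg adjusted p = 0.933.

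Called peaks were most repeated at napA, the gene of the transcription factor. Called peaks named napA in VeA::FLAG replicates 1, 2 and 3 and in LaeA::FLAG replicate 1, and in no WT library. The VeA::FLAG and WT libraries therefore do not overlap at napA, a pattern held by 10.7% of all genes. The same complete separation of LaeA::FLAG from WT was found for 1.22% of all genes and none of the 7. Exon 1 of napA starts at position 1788350 of chromosome IV (FGSC A4 assembly, forward strand), and the gene AN10945 starts 1043 bp away in the opposite direction. The stretch between both starts lies upstream of either gene.

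The VeA::FLAG combined list, called on the pooled tags of the 3 libraries, had a napA peak at IV:1788134-1788398, centred 84 bp upstream of the exon 1 start. Its signal was 465.6 with anti-FLAG (95% Poisson interval 408.9 to 530.0) and 0 with IgG. A count of 0 IgG tags allows up to 14.3 units, and the anti-FLAG signal was 32.5-fold that limit. This ratio leaves out the counting error of the anti-FLAG signal. The peak ranked 714 of 5502 by score.

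In VeA::FLAG replicate 1 the napA peak had a signal of 643.6 and lay 42 bp upstream of the start. In replicate 2 the signal was 335.4 at 19 bp inside exon 1 and 256.2 at 354 bp upstream. In replicate 3 it was 243.8 at 50 bp inside exon 1, 377.7 at 407 bp upstream and 247.2 near the start of exon 2. All of these stood on 0 IgG tags of the VeA::FLAG strain, and each library had 1 peak within 50 bp of the start of the gene. Peaks on 0 IgG tags were common in VeA::FLAG, at 46.7, 54.1 and 56.2% of all peaks in replicates 1, 2 and 3. The peaks of replicates 2 and 3 lay 103 and 134 bp from the centre of the combined peak, just beyond the 100 bp within which peaks were taken as the same.

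More peaks lay farther upstream, closer to AN10945 and therefore assigned to that gene. In VeA::FLAG they were 721, 774 and 1032 bp upstream of napA in replicates 1, 2 and 3, with signals of 892.3, 338.1 and 281.6 over IgG signals of 0, 7.16 and 0. In LaeA::FLAG the peak of replicate 1, which names napA, was 519 bp upstream with 586.5 over an IgG signal of 102.3, and that of replicate 2, which names AN10945, was 661 bp upstream with 602.7 over 82.0. The LaeA::FLAG combined list had 1 peak here, 584 bp upstream with 507.4 over 134.8, also assigned to AN10945. LaeA::FLAG replicate 3 and the 3 WT libraries had no called peak within 1.5 kb upstream of napA.

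Counted by position rather than by nearest gene, the 1.5 kb upstream of napA thus held a peak in 3 of 3 VeA::FLAG, 2 of 3 LaeA::FLAG and 0 of 3 WT libraries. At least that many in both tagged strains with none in WT was found for 187 of the 5099 genes whose exon 1 start could be worked out (3.67%). This count was chosen after the peaks had been seen. A start could be worked out only where more than 1 centre of a peak or merged region was assigned to exon 1. The 5099 genes are therefore selected by peaks in these same lists and do not stand for all genes. Most of the stretch, with the first bases of napA, was 1 merged region of 999 bp in the IgG tables. It held the centres of 12 peaks from the 11 lists, 7 in single VeA::FLAG libraries, 2 in the VeA::FLAG combined list, 2 in single LaeA::FLAG libraries and 1 in the LaeA::FLAG combined list. Its identifier ends in 18, read here as the number of merged peaks, and 0.0457% of all merged regions end in a number as high. That reading is an assumption. The number equalled the peaks held from the 11 lists in 7395 of the 21897 regions and was lower in none.

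**Figure D3:**
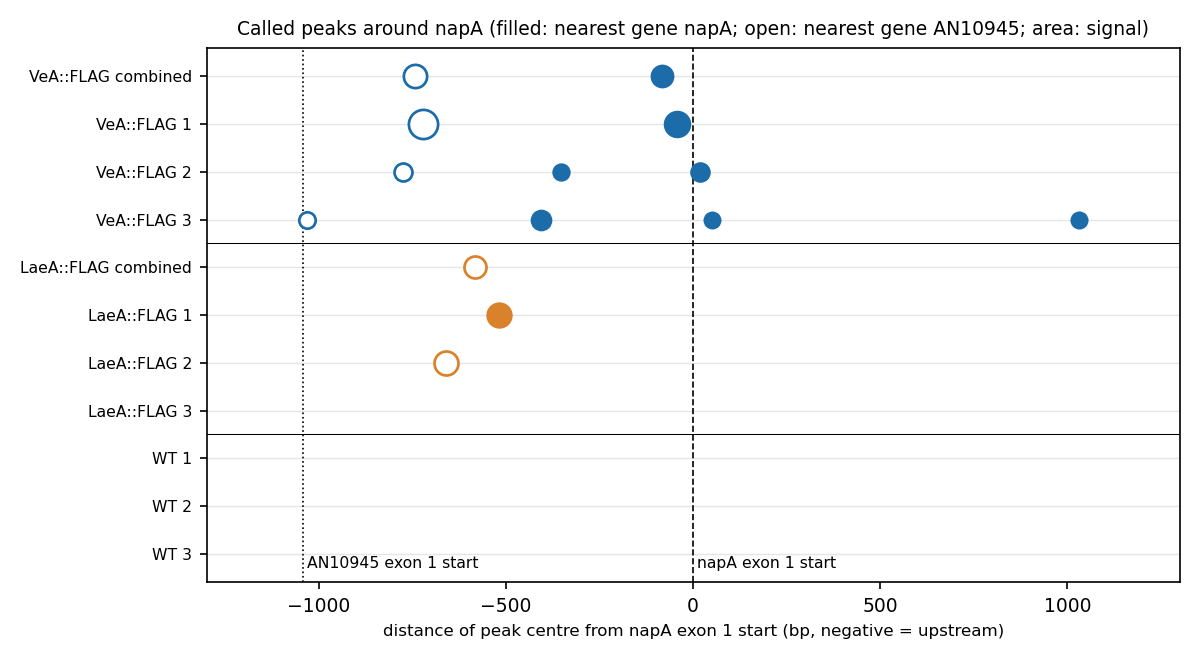
Centres of called peaks around napA for each list (rows) by distance from the napA exon 1 start (x axis, bp, negative is upstream); circle area is the anti-FLAG signal, filled circles name napA and open circles name AN10945. VeA::FLAG peaks stand near the napA start in the combined list and all 3 libraries, the 3 LaeA::FLAG peaks lie 519 to 661 bp upstream, and the WT rows are empty.

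IgG signal differed between strains upstream of napA. Over this merged region of 999 bp, IgG signal was 14.3 in VeA::FLAG (3 tags), 474.1 in LaeA::FLAG and 417.9 in WT. VeA::FLAG thus had by far the lowest IgG signal of the 3 strains where its anti-FLAG peaks were called, and its part in the calls was not tested. Each peak was also set, per kb, against the highest of the 3 IgG libraries, an alternative chosen after seeing the data. This IgG value was the mean over the merged region holding the peak, so it can be below the IgG under the peak itself. Peaks of at least 4-fold remained at napA in VeA::FLAG replicates 1, 2 and 3 and in LaeA::FLAG replicate 1. The VeA::FLAG combined peak was 3.70-fold over the highest IgG signal. By this measure 34.9, 46.0 and 47.4% of all peaks in VeA::FLAG replicates 1, 2 and 3 were at least 4-fold. In LaeA::FLAG replicate 1 the share was 49.5%, and in the VeA::FLAG combined list 11.6%.

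A farther LaeA::FLAG peak, in replicate 1 at IV:1790962-1791162, lay 503 bp past the start of exon 3 of napA, at the end of a transcript. Its signal was 326.9 with anti-FLAG and 81.5 with IgG, and no other list had a peak there.

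sodA, which encodes a copper and zinc superoxide dismutase, was called in VeA::FLAG replicates 1 and 2 and in no other library. Exon 1 starts at position 4172738 of chromosome VIII on the reverse strand. In replicate 1 a peak of 359.8 lay 149 bp upstream and in replicate 2 a peak of 324.9 lay 186 bp upstream, both on 0 IgG tags. The VeA::FLAG combined peak at VIII:4172792-4173056 had its centre 186 bp upstream too, with 338.1 over an IgG signal of 0, and ranked 1492 of 5502. Its signal was 23.6-fold the limit of 14.3 units that stands for 0 IgG tags. The 2 libraries with a call and the combined list thus placed the peak at the same site.

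Further VeA::FLAG peaks lay inside sodA. The combined list had a peak of 286.7 near exon 2 (VIII:4172225-4172489) on 0 IgG tags, replicate 2 a peak of 243.0 near exon 2 on 0 IgG tags, and replicate 1 a peak of 292.6 near exon 3 over an IgG signal of 14.3. With its pair of combined peaks, sodA was among the 8.65% of genes named at least 2 times in the VeA::FLAG combined list. VeA::FLAG replicate 3, the 3 LaeA::FLAG libraries and the 3 WT libraries had no called peak naming sodA.

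At sodA the IgG libraries also differed between strains. Over the merged region upstream, IgG signal was 0 in the VeA::FLAG, 174.4 in the LaeA::FLAG and 256.0 in the WT strain, and over that of exon 2 it was 0, 208.8 and 124.2 in the same order. Against the highest of the 3 IgG libraries, per kb, the VeA::FLAG combined peaks were 2.43-fold upstream and 1.67-fold at exon 2. A peak of at least 4-fold against the highest IgG remained in both replicate 1, at exon 3 (5.05-fold), and replicate 2, upstream (4.04-fold). The call of sodA in 2 of 3 VeA::FLAG and 0 of 3 WT libraries gave an exact p = 0.4 (adjusted p = 1).

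sodB, which encodes the mitochondrial manganese superoxide dismutase, was called in 1 library. In VeA::FLAG replicate 1 a peak at V:2351846-2352048, 39 bp inside exon 1, had a signal of 198.9 on 0 IgG tags. It rested on 34.0 anti-FLAG tags and ranked 3333 of 4252, in the lower part of its list. The wider merged region had IgG signals of 128.9 in the VeA::FLAG, 149.4 in the LaeA::FLAG and 96.0 in the WT strain, so the IgG tags of VeA::FLAG lay beside the peak rather than under it. Over the highest IgG, per kb, the peak was 2.34-fold. No combined list named sodB.

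catB, which encodes the main catalase of growing hyphae, was the only gene of the 7 in both combined lists. Such genes were 18.4% of all genes. Exon 1 starts at position 332021 of chromosome VIII on the reverse strand. The VeA::FLAG combined peak at VIII:332461-332725, centred 572 bp upstream, had a signal of 659.3 with anti-FLAG and 28.6 with IgG, a 23.0-fold difference, and ranked 329 of 5502. It had the highest anti-FLAG signal of the 5 VeA::FLAG combined peaks that name the 7 genes.

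The LaeA::FLAG combined list named catB 4 times. The peak upstream, at VIII:332539-332815 and 656 bp from the start, had 623.8 over an IgG signal of 170.6 and ranked 183 of 3333. Its centre was 84 bp from that of the VeA::FLAG combined peak. Only catB of the 7 was named by combined peaks of both tagged strains with centres within 100 bp, as were 7.88% of all genes. At a limit of 50 bp catB was not counted. At cpeA the LaeA::FLAG combined peak lay 85 bp from a peak of VeA::FLAG replicate 2, which is not a combined peak.

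The other LaeA::FLAG combined peaks followed along catB, at exon 2 with 496.4 over an IgG signal of 113.6, at exon 4 with 548.4 over 114.0, and 829 bp past the start of exon 5 with 532.3 over 158.3. Their centres lay 426, 1218 and 2195 bp downstream of the exon 1 start. The 4 peaks differed little in anti-FLAG signal (496.4 to 623.8) and all stood 3.36- to 4.81-fold over the IgG of LaeA::FLAG. catB was 1 of 8 genes (0.0829%) named at least 4 times in that list.

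The single libraries gave fewer peaks at catB. In VeA::FLAG only replicate 1 had a peak, 1389 bp upstream at VIII:333309-333511, with 658.2 over an IgG signal of 128.9, where the lists place the end of the neighbouring gene treA (AN9340). In LaeA::FLAG only replicate 2 had a peak, 929 bp past the start of exon 5, with 613.0 over 91.4. In WT only replicate 2 had peaks, 755 bp upstream with 237.2 over 52.7 and 451 bp past the start of exon 5 with 289.9 over 41.4. The nearest single VeA::FLAG peak was 817 bp from the VeA::FLAG combined peak, and 3 of the 4 LaeA::FLAG combined peaks had no single LaeA::FLAG peak within 1 kb.

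A combined peak of this score without support from a single library was uncommon. Of the 330 VeA::FLAG combined peaks that score at least as high as that of catB, 27 (8.18%) had no peak of a single VeA::FLAG library within 100 bp, against 23.0% of the whole list. Of the 183 LaeA::FLAG combined peaks that score at least as high as the upstream one of catB, 23 (12.6%) had none, against 52.6% of the whole list. The signal at catB in the combined lists was therefore not seen as a call in the libraries that were pooled, apart from the LaeA::FLAG peak 829 bp past the start of exon 5.

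WT also had a called peak upstream of catB, in replicate 2, with its centre 99 bp from that of the LaeA::FLAG and 183 bp from that of the VeA::FLAG combined peak. IgG signal over the merged region there was 28.6 in the VeA::FLAG, 247.4 in the LaeA::FLAG and 167.5 in the WT strain. Against the highest of the 3 IgG libraries, per kb, the combined peaks were 4.10-fold in VeA::FLAG and 3.71-fold in LaeA::FLAG. Each strain had 1 library of 3 with a call at catB, and both comparisons with WT gave an exact p = 1.

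catC, which encodes a peroxisomal catalase, was called in VeA::FLAG replicates 1 and 2. Exon 1 starts at position 1817971 of chromosome I on the reverse strand. Upstream, replicate 1 had a peak of 239.9 over an IgG signal of 33.4 at 677 bp, and replicate 2 had a peak of 190.2 over 16.7 at 708 bp. The pair lay 31 bp apart, and the combined list named catC at neither. Against the highest of the 3 IgG libraries, per kb, they were 3.64-fold in replicate 1 and 3.83-fold in replicate 2. At 4-fold over the highest IgG, catC was thus called in replicate 2 alone, and 2 genes (sodA and napA) were called in at least 2 VeA::FLAG libraries, against 14.7% of all genes. No LaeA::FLAG or WT library had a called peak naming catC, and VeA::FLAG against WT gave an exact p = 0.4 (adjusted p = 1).

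The VeA::FLAG combined list instead named catC at I:1817015-1817279, 604 bp past the start of exon 3. The signal was 227.4 with anti-FLAG and 183.8 with IgG, only 1.24-fold apart, and replicate 2 alone had a peak there, narrower, with 501.8 over 50.1. Over the highest IgG the combined peak was 1.17-fold and that of replicate 2 was 4.48-fold. IgG signal in this region was 183.8 in the VeA::FLAG, 102.3 in the LaeA::FLAG and 193.9 in the WT strain. A further merged region upstream of catC (I:1818179-1818443) held no peak of the 11 lists.

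catA, which encodes the catalase of conidia, was called in LaeA::FLAG replicate 2 and WT replicate 2, and not in VeA::FLAG. Exon 1 starts at position 3296270 of chromosome III on the forward strand. The LaeA::FLAG peak lay 208 bp past the start of exon 2, with 329.7 over an IgG signal of 78.2 (4.21-fold). The WT peak at III:3296019-3296203, 159 bp upstream, had 325.0 over 22.6 (14.4-fold). The highest fold over the strain's own IgG near catA was thus that of the untagged WT. Over the highest IgG per kb, the LaeA::FLAG peak was 1.16-fold and the WT peak 3.90-fold.

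Peaks of VeA::FLAG did occur in front of catA, but they named AN8638, which starts 470 bp away in the opposite direction. The VeA::FLAG combined peak lay 256 bp upstream of catA with 225.4 over an IgG signal of 112.2 (2.01-fold), and replicate 2 had a peak 329 bp upstream with 406.7 over 43.0. Over the merged region upstream of catA, IgG signal was 219.5 in the VeA::FLAG, 188.0 in the LaeA::FLAG and 69.7 in the WT strain, an order unlike that at napA and sodA.

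cpeA, which encodes a catalase-peroxidase, was named by 1 peak in VeA::FLAG and 1 in LaeA::FLAG. Exon 1 starts at position 114616 of chromosome IV on the reverse strand. VeA::FLAG replicate 2 had a peak 211 bp upstream with 309.0 over an IgG signal of 138.4, and the LaeA::FLAG combined list had a peak at IV:114604-114880, 126 bp upstream, with 283.4 over 122.1. These signals were only 2.23- and 2.32-fold over the IgG signal within the peak. Over the highest IgG per kb, averaged over the wider merged region, they were 4.44- and 2.25-fold. IgG of VeA::FLAG was denser under the peak of replicate 2 than over that region, which gives the higher value. No single LaeA::FLAG library had a peak within 1 kb of the combined one.

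A higher and more repeated site lay farther upstream of cpeA and named AN7387, at its exon 2. In VeA::FLAG it was called in the combined list 1317 bp upstream of cpeA (675.1 over 90.7, rank 282 of 5502), in replicate 1 at 1292 bp (646.5 over 90.7) and in replicate 2 at 1289 bp (800.2 over 64.4). In LaeA::FLAG it was called in the combined list at 1238 bp (421.7 over 112.2), in replicate 1 at 1246 bp (556.4 over 75.4) and in replicate 2 at 1344 bp (504.8 over 107.9). WT had a peak upstream of cpeA only in replicate 2, at another place, 567 bp from the start (329.4 over 30.1). Libraries 1 and 2 of both tagged strains therefore had this site, which lies within 1.5 kb of cpeA but is nearest to an exon of another gene.

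**Figure D4:**
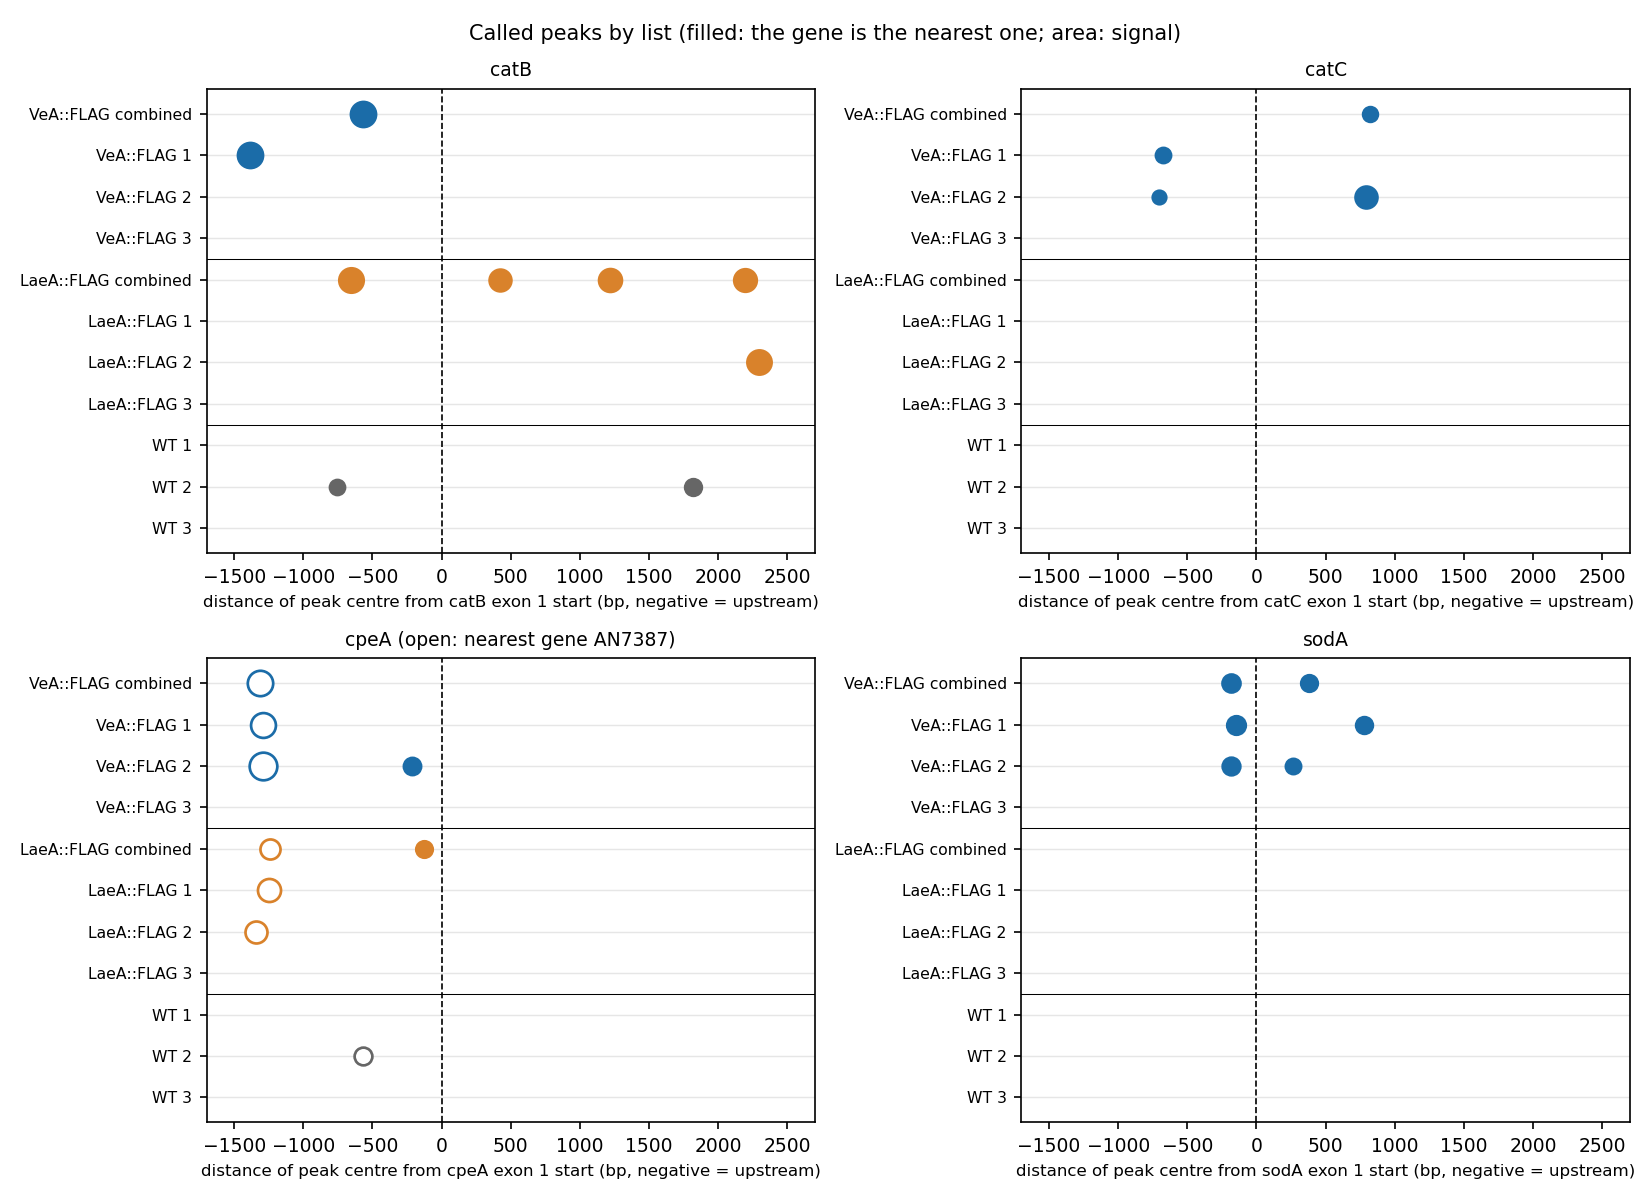
Centres of called peaks around catB, catC, cpeA and sodA for each list (rows) by distance from the exon 1 start of the gene (x axis, bp, negative is upstream); circle area is the anti-FLAG signal, filled circles name the gene and open circles in the cpeA panel name AN7387. LaeA::FLAG combined peaks run along catB from 656 bp upstream to 2195 bp downstream, and the VeA::FLAG peaks upstream of sodA stand at 149 to 186 bp.

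Across the 7 genes, the VeA::FLAG combined list named catB, catC, sodA and napA (57.1%, against 47.1% of all genes) and the LaeA::FLAG combined list named catB and cpeA (28.6%, against 29.5%). Promoter peaks, with centres up to 1.5 kb upstream of the start of exon 1, were found at catB, sodA and napA in VeA::FLAG (42.9%, against 25.6% of all genes) and at catB and cpeA in LaeA::FLAG (28.6%, against 13.6%). With 7 genes, each gene moves such a share by 14.3 percentage points. Of the 10 combined peaks that name the genes, 5 lay upstream of exon 1, against 44.6% of all combined peaks, and of the 23 single peaks 12 did (52.2%), against 39.4%.

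By position, a peak within 1.5 kb upstream in at least 2 VeA::FLAG libraries was found for 4 of the 6 genes with a known start (catC, cpeA, sodA and napA), against 44.0% of the 5099 genes. In at least 2 LaeA::FLAG libraries it was found for 2 of 6 (cpeA and napA), against 9.86%. In at least 1 WT library it was found for 3 of 6 (catA, catB and cpeA), against 12.4%, each time in replicate 2. The start of sodB was not resolved by the rule used here, which needs more than 1 centre at exon 1.

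IgG signal over the 18 merged regions that name the genes was read in the IgG library of each strain. Per kb, its median was 127.4 in the VeA::FLAG, 407.8 in the LaeA::FLAG and 257.1 in the WT strain, where that of all 21897 regions was 155.9, 368.1 and 305.8. No IgG tag of VeA::FLAG was found in 5 of the 18 regions (27.8%, against 28.9% of all regions), 3 of which held VeA::FLAG peaks at napA or sodA. IgG of VeA::FLAG was the lowest of the 3 strains in 8 of the 18 regions (44.4%), against 58.0% of all regions.

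**Figure D5:**
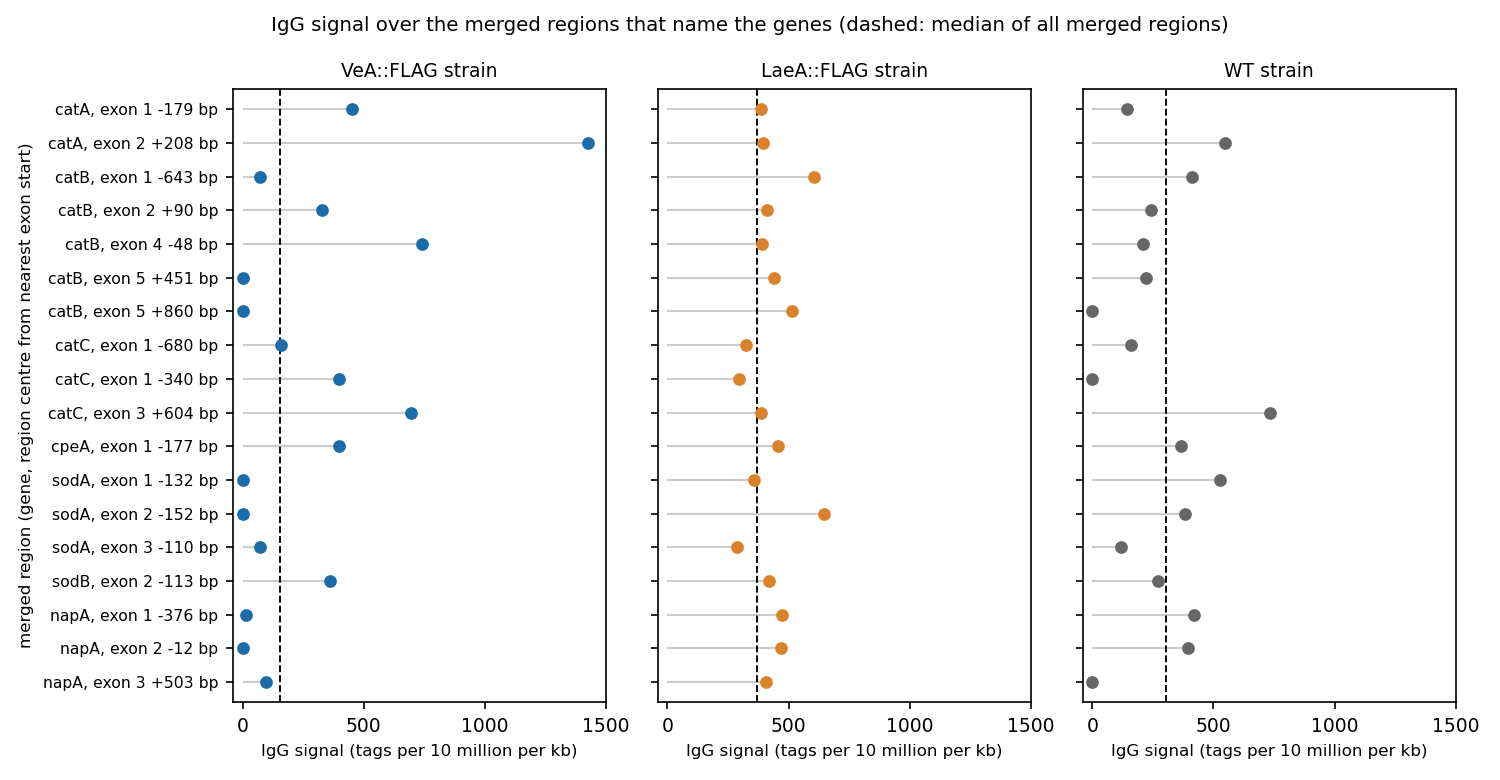
IgG signal (tags per 10 M per kb) over the 18 merged regions that name the 7 genes (rows, by gene and by distance of the region from the nearest exon start) in the VeA::FLAG, LaeA::FLAG and WT strains; dashed lines are the medians of all merged regions, 155.9, 368.1 and 305.8. In VeA::FLAG the napA regions and the sodA regions lie below its dashed line, whereas both catA regions lie above it.

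Over the 9 anti-FLAG libraries, napA (called in VeA::FLAG replicates 1, 2 and 3 and LaeA::FLAG replicate 1) and catB (VeA::FLAG 1, LaeA::FLAG 2 and WT 2) were called at least 3 times. The exact pattern of napA was shared by 169 other genes, and those nearest in the score of their VeA::FLAG combined peak (460.6 each, 455.7 for napA) were AN2760, bioDA (AN6644) and AN6693. The pattern of catB was shared by 13 other genes, nearest in score being the chitin synthase gene chsE (AN6318) with 382.5, AN5221 and AN6365 with 364.7 each, all far from the 620.8 of catB.

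Of 15 symbols of other antioxidant genes that were listed, such as thioredoxins and glutaredoxins, 1 was matched to an identifier, ccpA (AN10109), and no list named it, so it could not be tested. A pair of genes with similar symbols was added after the peaks had been seen. sod4 (AN5148) was called in VeA::FLAG replicates 2 and 3 and in no LaeA::FLAG or WT library (exact p = 0.4, adjusted p = 1). The higher of its VeA::FLAG combined peaks had 210.5 over an IgG signal of 52.5. glr1 (AN0932) was called in 1 library of each strain, and its LaeA::FLAG combined peak had 346.3 over an IgG signal of 75.4.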

How the data were processed

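The annotated peak lists of 9 anti-FLAG libraries, 1 list per tagged strain from pooled replicates and 3 IgG tables over 21897 merged regions were used as deposited. Mapping was with bowtie2 and peak calling with HOMER according to the study's methods. The submitters' processing notes give HOMER 4.11. Replicates were pooled by the authors only in the combined lists. Signal, as deposited, is the number of tags within a peak or merged region after scaling each library to 10 M. The peak score deposited by the authors was used for ranks, to choose top peaks and genes nearest in score, and to count peaks scoring at least as high. Neither is a read count, and no model for counts was fitted.

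A gene was called in a library that held at least 1 peak naming it as nearest. Calls were tested with Fisher's exact test over 9656 genes, with Benjamini-Hochberg adjustment (Python 3.11.15, scipy 1.17.1, pandas 2.3.3, numpy 2.4.6, figures with matplotlib 3.10.9), tested on simulated data. The 7 genes and the lists were chosen with earlier results of these data known. All 7 were named in the text, with genes of the same call pattern nearest in score. Exon starts were worked out from peak centres and signed distances, for exon 1 of 5099 genes including 6 of the 7. This needs more than 1 centre at the exon, so genes with few peaks there were left out. The strand and start of sodB were not resolved by this rule. Coordinates are those of the lists, on the FGSC A4 assembly. The symbols of the 7 genes are those in use for A. nidulans and were paired with the identifiers beforehand. RefSeq (ASM1142v1, names only, 92.0% of identifiers matched) gives the same symbol for catA alone, and cat1 for catB, fgaCat for catC, sod1 for sodA, sod2 for sodB and yap1 for napA. Symbols of other genes came from RefSeq. That table holds no gene products, so the planned choice of other genes by product was not made. No genome sequence was used here. A limit of 3 tags stood for 0 IgG tags, and Poisson intervals (95%) used tags per peak. Alternatives were another promoter length, any exon, a fold of at least 4, 50 bp or any overlap between peaks, supported peaks, removal of WT peaks, equal numbers of top peaks, left-out replicates and a replicate block.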

Additional observations from a re-analysis of the deposited data

How the results depend on the processing

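Counts are of the 7 genes, and those without a share over all genes are not set against the background. VeA::FLAG promoter peaks were at 3 genes, and at 5 (catA and cpeA added) when any peak up to 1.5 kb upstream was counted whichever gene it names, an alternative chosen after seeing the data. Under that rule 57.2% of the 5099 genes had a peak. The count called in at least 2 VeA::FLAG libraries (3) ranged from 1 to 3 when a replicate was left out, and was 1 (napA) without replicate 1 or without replicate 2. Of all genes, 25.8, 21.1 and 21.3% were called without replicates 1, 2 and 3, against 39.1% with all libraries. The LaeA::FLAG combined count (2) was 1 with a fold of at least 4 over IgG and 1 with support from a single library within 100 bp. At that fold the list named 5.68% of all genes, against 29.5% before. The LaeA::FLAG promoter count (2) was 0 with a fold of at least 4. The count shared by both combined lists (1, catB) was 0 at 50 bp between centres and 0 with a fold of at least 4. Genes with more called libraries than WT, 5 in VeA::FLAG and 1 in LaeA::FLAG, were 0 and 0 with equal numbers of top-scoring peaks, which leaves 134 peaks per list. With the highest IgG of the 3 strains, averaged over merged regions and chosen after seeing the data, they were 4 and 2. The 4 include cpeA, whose VeA::FLAG peak was 2.23-fold over the IgG within it. The count called in at least 2 VeA::FLAG libraries was then 2, against 14.7% of all genes. When a library was left out, genes with more called libraries than WT ranged from 4 to 6 and from 1 to 3, by the share of libraries called. Leaving out a library without a call at a gene moves that share although no call changes. The causes of these changes were not tested. Of the other values, 35 counts and 107 values for single genes kept within the limit for the same result, and 33 values for single genes moved. Same-numbered libraries of different strains did not deviate together in their calls (correlations from -0.00915 to 0.0233). Whether the numbers mark shared cultures or batches is not given by the labels, and these values cannot tell. With the replicate number as a block the counts were 5 and 1, with p = 0.25 for napA in VeA::FLAG, the smallest an exact test over swaps can give.

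LaeA::FLAG replicate 3 and WT replicates 1 and 3 had 557, 134 and 201 called peaks in all, so missing calls there say little of these genes. Depth was 3.70, 7.97 and 0.320 M tags in these libraries, and the cause of the short lists was not tested.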
